A study of Mus musculus with 4 samples.

Results

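The kinesin family genes examined here were the 48 of the 21936 genes in the count table whose GENCODE vM21 symbol is Kif followed by a digit, Kifap3, a Kifc gene or a kinesin light chain gene (Klc1 to Klc4). All 48 are annotated as protein coding, and they lie on 16 chromosomes. The rule works on symbols alone and therefore also took in proteins without a motor domain. These are the light chains, the kinesin-2 accessory subunit KIFAP3 and the KIF1-binding protein encoded by Kif1bp. Of the 48, 47 had enough counts to be tested, and Kif12 did not.

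The study asked which mRNAs are associated with TSSK2, a testis-specific serine/threonine kinase that marks the late chromatoid body (late-CB), an RNA and protein granule of elongating spermatids. Germ cells from testes of adult C57BL/6 mice were fixed with paraformaldehyde and sonicated in lysis buffer, and complexes were pulled from the pelleted material either by an antibody to TSSK2 (TSSK2-IP, 2 libraries) or by mouse IgG (control IgG-IP, 2 libraries). The labels give no genotype or treatment that differs between the 4 libraries, and only the antibody distinguishes the groups. The cross-links were reversed before RNA was purified, and the strand-preserving libraries still contained ribosomal RNA. How many animals went into a library, and whether the replicates of a group came from separate animals, is not given in the sources used here, so the p-values below measure only the spread between these samples, which may be technical.

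Kinesins are motor proteins that use ATP to walk along microtubules or to take them apart. Most carry cargo or build and maintain cilia, and a group of them assembles the spindle and completes cytokinesis. In the testis they serve the meiotic divisions of spermatocytes, and in spermatids they act at the manchette, the microtubule skirt that shapes the nucleus, and in the growing sperm tail.

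What the motor members share in sequence is the P-loop, the nucleotide-binding stretch also known as the Walker A motif. It was searched for in the reading frame of the longest coding transcript of each gene, on the coding strand only, and was found in 42 of the 48 members. The 6 without a match were Kif1bp, Kifap3 and the 4 light chains. Among all 21901 protein-coding genes searched in the same way, 942 (4.3%) held it, so the motif is not peculiar to kinesins. The stretches of 60 coding bases below belong to 8 of the members with the highest levels per length and to the near-identical pair Kifc1 and Kifc5b, for which the counts below cannot be fully separated. Capitals mark the 24 bases of the P-loop, the letters are those of the GENCODE vM21 transcripts on mouse build GRCm38, and for Kif2c, which held 2 matches, the first is shown.
Kif2a: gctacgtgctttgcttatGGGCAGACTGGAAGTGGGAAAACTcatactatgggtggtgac
Kif2b: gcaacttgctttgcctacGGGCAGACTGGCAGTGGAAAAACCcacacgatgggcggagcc
Kif2c: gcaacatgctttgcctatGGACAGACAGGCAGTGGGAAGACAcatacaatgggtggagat
Kif3a: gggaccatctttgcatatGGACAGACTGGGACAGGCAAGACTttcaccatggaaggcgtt
Kif3b: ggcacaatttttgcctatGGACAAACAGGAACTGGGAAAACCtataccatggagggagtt
Kif17: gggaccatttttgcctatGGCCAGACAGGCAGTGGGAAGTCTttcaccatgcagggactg
Kif27: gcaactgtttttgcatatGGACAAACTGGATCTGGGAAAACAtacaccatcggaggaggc
Kif9: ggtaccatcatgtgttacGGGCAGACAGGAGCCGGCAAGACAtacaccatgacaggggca
Kifc1: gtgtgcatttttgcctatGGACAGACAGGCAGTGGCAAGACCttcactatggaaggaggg
Kifc5b: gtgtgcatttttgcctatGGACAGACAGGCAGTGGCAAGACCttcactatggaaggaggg

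The stretches of Kif2a and Kif2b were identical at 48 of 60 bases, those of Kif2a and Kif2c at 49, and those of Kif3a and Kif3b at 45. The Kifc1 and Kifc5b stretches were identical at all 60. Over the 42 members with the motif there were 41 distinct 24-base versions, the pair Kifc1 and Kifc5b being the exception.

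Library totals were 4158034 and 4491749 counts for the TSSK2-IP replicates and 9858941 and 3938922 counts for the control IgG-IP replicates. Levels are given as normalized CPM, counts scaled to a common library size, on which 1 count was worth between 0.156 and 0.230 CPM and a count of 3 between 0.468 and 0.689 CPM. Over the 6780 genes with a mean of at least 20 CPM, the log2 difference between replicates had an SD of 0.23 between the TSSK2-IP libraries and 0.93 between the controls, so the control libraries stood further apart than the TSSK2-IP libraries. The main values below are therefore also given without control replicate 1 or without control replicate 2. Defining markers of spermatids and spermatocytes were present in all libraries, with summed levels of 7 elongating spermatid mRNAs between 4221 and 4656 CPM in TSSK2-IP and between 5416 and 10845 CPM in control IgG-IP.

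Kinesin family mRNAs were present in all libraries, with levels that spanned a wide range. Together the 48 members held between 0.506% and 0.639% of the counts of a library. Per kilobase of exon, Kif2b was the highest, with a mean of 375 CPM per kb over the 4 libraries, followed by Kif27 at 119, Kif17 at 97.9, Kif9 at 96.2 and Kif3b at 88.6 CPM per kb. Kifap3 (81.3), Kif2c (81.2), Kif2a (58.9), Kif3a (34.1) and Kif20a (30.9 CPM per kb) completed the 10 highest, and the next member, Klc2, was at 20.5 CPM per kb. This group of 10 was drawn after the values were seen. It was the same by the TSSK2-IP libraries alone and by control IgG-IP replicate 2 alone, and it held 61.4% and 63.1% of the members' counts in TSSK2-IP against 79.6% and 66.6% in control IgG-IP. The lowest levels per kb were those of Kif26b, Kif3c, Kif26a and Kif28, at 0.503 to 0.655 CPM per kb.

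**Figure D1:**
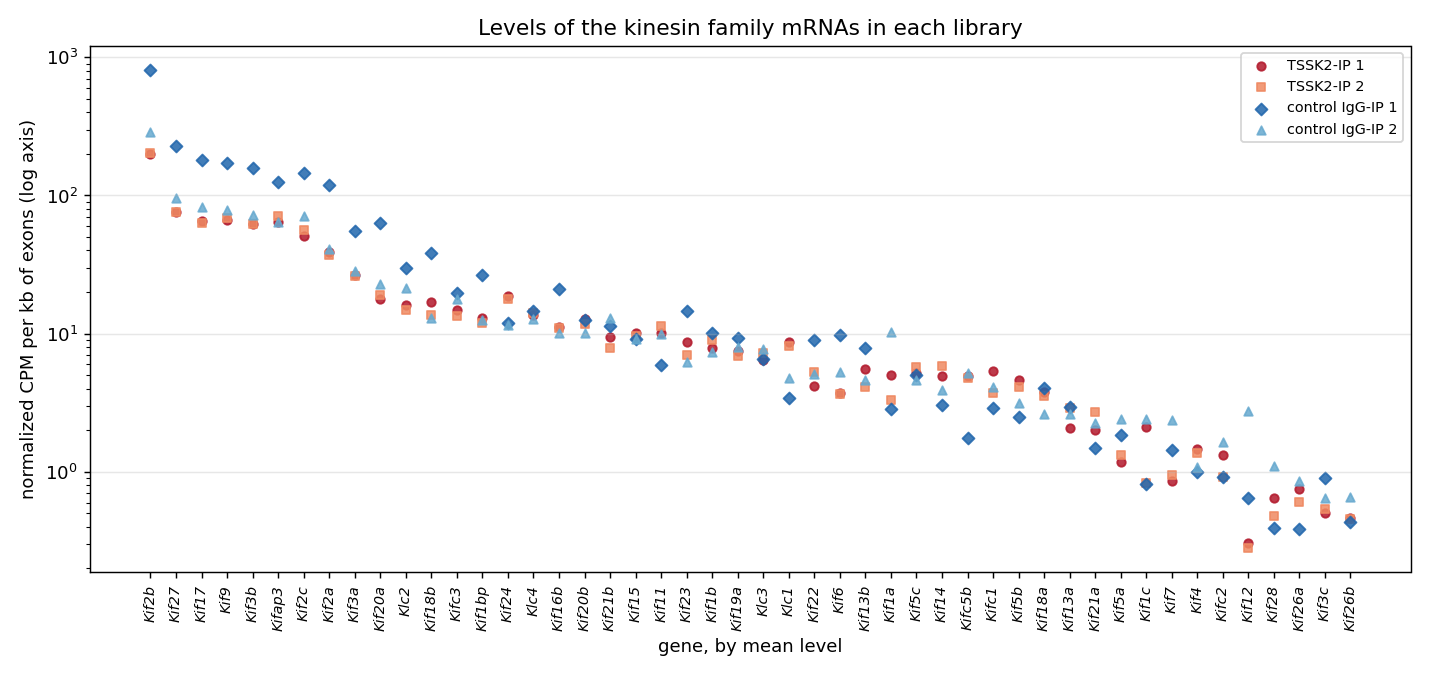
Normalized CPM per kilobase of exon, on a log axis, of the 48 kinesin family mRNAs in each of the 4 libraries, ordered by their mean from Kif2b (375) to Kif26b (0.503). Each gene has 1 point per library. At the left, the control IgG-IP replicate 1 points stand above the other 3 libraries.

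No kinesin family mRNA passed the thresholds of the comparison, which were a change of at least 1 on the log2 scale and, over the 14722 genes tested, a p not above 0.05 by the quasi-likelihood test of edgeR after Benjamini-Hochberg adjustment. None of the 47 members was called higher in TSSK2-IP, where 0.693% of all genes were, and none was called lower, where 0% of all genes were. DESeq2 called none in either direction, where it called 1.03% of all genes higher and 0.0475% lower. At an unadjusted p under 0.05, 1 member was higher (Klc1, against 8.34% of all genes) and 2 were lower (Kif20a and Kif6, against 4.89%). By DESeq2 none was higher at that p (against 5.43%) and 8 were lower (17.0%, against 9.19%). Adjusted p-values of the members ranged from 0.305 to 0.996. The RNA was pulled down from a mixture of cells. Fewer cells of a type, less RNA per cell and less RNA pulled down cannot be told apart. The levels below carry that limit.

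The fitted log2 fold changes of TSSK2-IP over control IgG-IP ran from -1.45 for Kif2b to 1.05 for Klc1. Their median was -0.38, beside -0.019 over all genes tested, a distance of -0.36. Without control replicate 1 the median was -0.10 and the distance -0.11, and without control replicate 2 they were -0.41 and -0.56. Of the 47 members, 32 were fitted below 0 (68.1%, against 50.8% of all genes) and 15 above. Both TSSK2-IP libraries lay below both control libraries for 17 members (36.2%, against 21.6% of all genes) and above both for 8 (17.0%, against 27.3%), and for 22 the groups overlapped. By size alone, 8 members lay at -1 or below and Klc1 at 1 or above, without a share of all genes to set beside them. No test was made of the list as a whole.

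**Figure D2:**
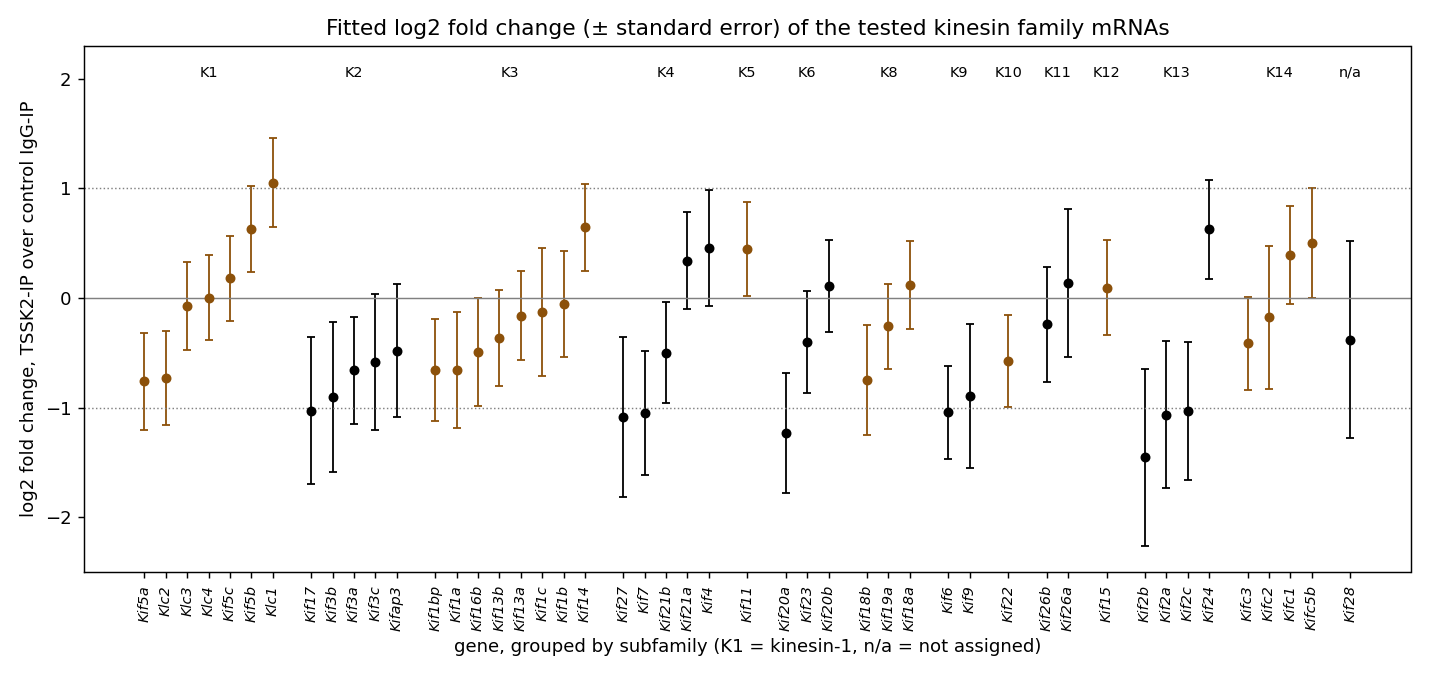
Fitted log2 fold change of TSSK2-IP over control IgG-IP with its standard error for the 47 tested members, grouped by kinesin subfamily, with dotted lines at 1 and -1. The kinesin-2 members all lie below 0, kinesin-13 holds the lowest value (Kif2b, -1.45) and kinesin-1 the highest (Klc1, 1.05).

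The kinesin-13 motors take microtubules apart from their ends, and 3 of the 4 members had both TSSK2-IP libraries below both control libraries (against 21.6% of all genes). Kif2b (chr11:91575315-91577558, minus strand, annotated with no intron and 2244 bases of exon) measured 448 and 454 CPM in TSSK2-IP and 1819 and 648 CPM in control IgG-IP. The TSSK2-IP replicates were nearly equal, whereas control replicate 1 stood 2.81-fold above control replicate 2. The fitted log2 fold change was -1.45 ± 0.81 (SE), with an edgeR adjusted p of 0.432, and it was -0.52 against control replicate 2 alone and -2.06 against control replicate 1 alone.

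Kif2a (chr13:106958996-107022126, minus strand) measured 249 and 239 CPM in TSSK2-IP and 756 and 263 CPM in control IgG-IP. Its 2 TSSK2-IP values fell just under control replicate 2, and the fitted log2 fold change of -1.06 became -0.11 without control replicate 1. Its exons overlap those of Dimt1 on the opposite strand by 1229 bases, and how the counting treated strand is not given in the sources used here. Kif2c (chr4:117159639-117182639, minus strand), which corrects faulty chromosome attachments at the centromere, measured 221 and 245 CPM against 638 and 312 CPM and was fitted at -1.03 (edgeR adjusted p of 0.476), or -0.42 without control replicate 1.

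Kif24 was the kinesin-13 member that lay the other way. It acts at the centriole, where it restrains cilium formation. Its levels were 150.3 and 141.8 CPM in TSSK2-IP and 96.1 and 93.1 CPM in control IgG-IP. Here the control replicates were close to each other and both TSSK2-IP libraries stood above them, by 1.54-fold in the means. The log2 fold change of 0.63 ± 0.45 (SE) did not pass the test (edgeR adjusted p of 0.536), and it was 0.65 and 0.55 when control replicate 1 and control replicate 2 were left out in turn.

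Kinesin-2 motors drive intraflagellar transport and carry cargo in spermatids, and all 5 members were fitted below 0 (against 50.8% of all genes). Their median was -0.66, or -0.23 without control replicate 1 and -1.11 without control replicate 2. KIF17, known as a partner of the CREM coactivator ACT in spermatids and as a protein found at the chromatoid body, is encoded on chr4:138250435-138301967 (plus strand). Kif17 measured 299 and 292 CPM in TSSK2-IP and 825 and 378 CPM in control IgG-IP, a fitted log2 fold change of -1.03 ± 0.67 (SE) with an edgeR adjusted p of 0.499. Both TSSK2-IP values lay below both controls, and the fold change was -0.35 without control replicate 1.

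The 3 parts of the heterotrimeric kinesin-2 motor, which is needed for sperm tails and for shaping the sperm head, are given next. The motor subunit Kif3b (chr2:153291413-153333390) measured 348 and 349 CPM in TSSK2-IP and 891 and 409 CPM in control IgG-IP. Its partner Kif3a (chr11:53567379-53601967) measured 95.4 and 94.4 CPM against 197 and 102 CPM. The accessory subunit Kifap3 (chr1:163779583-163917109) measured 259 and 286 CPM against 500.2 and 260 CPM.

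For Kif3b and Kif3a both TSSK2-IP libraries were below both controls, whereas for Kifap3 the groups overlapped. The fitted log2 fold changes were -0.90 ± 0.68 (SE) for Kif3b, -0.66 ± 0.49 (SE) for Kif3a and -0.48 ± 0.61 (SE) for Kifap3. Their edgeR adjusted p-values were 0.558, 0.545 and 0.745. Without control replicate 1 the fold changes were -0.23, -0.10 and 0.074, so that of Kifap3 changed its sign. Differences between the 3 genes were not tested. Kif3c, an alternative partner of KIF3B, was low, at 3.73 to 6.71 CPM over the 4 libraries.

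Motors tied to cilia and to Hedgehog signalling came from the kinesin-4 and kinesin-9 subfamilies. Kif27 (chr13:58287502-58359122, minus strand), a relative of Kif7 linked to the central pair of motile cilia, measured 397 and 398 CPM in TSSK2-IP and 1184 and 503 CPM in control IgG-IP. Kif9 (chr9:110476958-110525179), a motor of the central apparatus of the sperm tail, measured 284 and 296 CPM against 738 and 337 CPM. In both genes the TSSK2-IP replicates agreed closely and lay below both controls.

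Kif27 was fitted at a log2 fold change of -1.09 ± 0.73 (SE) and Kif9 at -0.89 ± 0.66 (SE), with edgeR adjusted p-values of 0.509 and 0.544. These became -0.34 and -0.21 without control replicate 1. Kif6, the other kinesin-9 motor, is found in motile cilia. It measured 22.4 and 21.9 CPM in TSSK2-IP and 59.3 and 31.7 CPM in control IgG-IP, a log2 fold change of -1.04 ± 0.42 (SE) with an edgeR adjusted p of 0.329. Its unadjusted p was among the 2 under 0.05 on the lower side, and the fold change was -0.51 without control replicate 1.

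Kif7, which works at the tip of the primary cilium, was far less abundant. It measured 3.94 and 4.38 CPM in TSSK2-IP and 6.55 and 10.8 CPM in control IgG-IP. Unlike the motors above, it was higher in control replicate 2 than in control replicate 1, and its log2 fold change of -1.05 (edgeR adjusted p of 0.422) became -1.36 without control replicate 1, where it was called lower. Of the remaining kinesin-4 members, Kif21b lay below both controls, Kif4 above both, and Kif21a overlapped them.

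**Figure D3:**
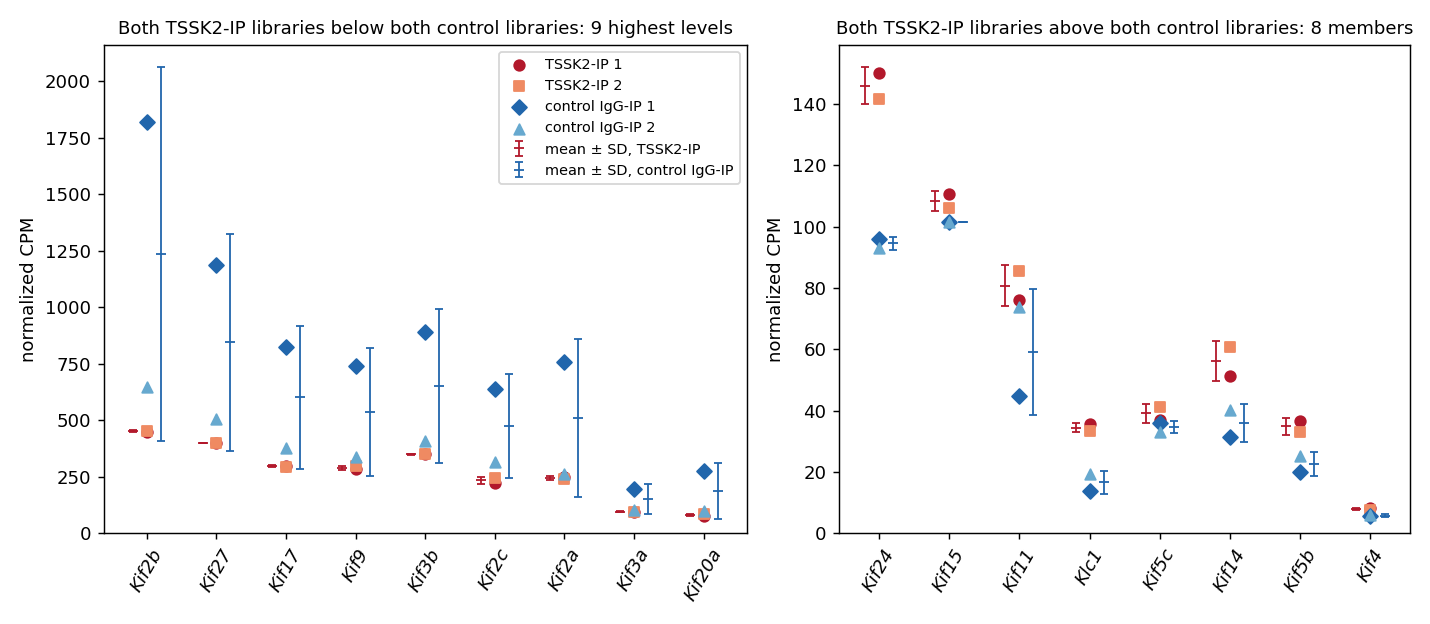
Normalized CPM in each library, with the mean and SD of each group (n = 2) beside the points, of 9 abundant members whose TSSK2-IP libraries lay below both control libraries (left) and of the 8 members whose TSSK2-IP libraries lay above both (right). On the left control IgG-IP replicate 1 is the high point of every gene, up to 1819 for Kif2b. On the right the highest point is that of Kif24 in TSSK2-IP replicate 1, at 150.3 CPM.

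Kinesin-1, the main carrier of organelles and vesicles, consists of heavy chains (Kif5a, Kif5b, Kif5c) and light chains that hold the cargo, and its members lay on both sides of 0 with a median of 0.0054. The light chain Klc1 (chr12:111758849-111807844) measured 35.4 and 33.3 CPM in TSSK2-IP and 13.9 and 19.3 CPM in control IgG-IP. Both TSSK2-IP libraries were above both controls, 2.07-fold in the means. It had the smallest adjusted p of the family, 0.305 by edgeR, at a log2 fold change of 1.05 ± 0.40 (SE), and the fold change was 0.84 and 1.26 without control replicates 1 and 2.

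The light chain Klc2 lay the other way, at 66.3 and 61.5 CPM in TSSK2-IP and 123 and 89.1 CPM in control IgG-IP (log2 fold change of -0.73, edgeR adjusted p of 0.460). Klc3, a light chain of the sperm midpiece that binds outer dense fibres, measured 17.0 and 19.0 CPM against 17.5 and 20.4 CPM. The Klc3 groups overlapped, with a fitted log2 fold change of -0.072 ± 0.40 (SE) and an edgeR adjusted p of 0.956, as did those of Klc4.

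Among the heavy chains, Kif5b, the widely expressed form, measured 36.7 and 32.9 CPM in TSSK2-IP and 19.8 and 25.3 CPM in control IgG-IP. Kif5c measured 36.9 and 41.3 CPM against 35.9 and 33.1 CPM, and Kif5a, known mainly from neurons, 8.29 and 9.32 CPM against 12.9 and 17.0 CPM. Kif5b and Kif5c thus lay above both controls and Kif5a below both. Their log2 fold changes were 0.63, 0.18 and -0.76, with edgeR adjusted p-values of 0.486, 0.864 and 0.459. Kif5b shares stretches of 152 and 151 bases at over 97% identity with Ilf2 and Npepps, so part of its counts is uncertain.

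The motors of the spindle and of cytokinesis are taken next. Kif20a (chr18:34624613-34633277), which brings the chromosomal passenger complex to the midzone of dividing cells, measured 77.7 and 82.6 CPM in TSSK2-IP and 276 and 99.7 CPM in control IgG-IP. It was lower in both TSSK2-IP libraries than in both controls, with a log2 fold change of -1.23 ± 0.54 (SE) and an edgeR adjusted p of 0.359, and -0.31 without control replicate 1. Its exons overlap those of Cdc23 on the opposite strand by 1271 bases.

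Kif14, which acts with citron kinase in cytokinesis, lay above both controls, at 51.4 and 60.7 CPM against 31.5 and 40.2 CPM. Kif11, the kinesin-5 motor that pushes spindle poles apart, did so too, at 76.1 and 85.4 CPM against 44.6 and 73.8 CPM, although its lower TSSK2-IP value was close to control replicate 2. The fitted log2 fold changes were 0.65 ± 0.40 (SE) for Kif14 and 0.45 ± 0.43 (SE) for Kif11, with edgeR adjusted p-values of 0.477 and 0.648. They were 0.49 and 0.14 without control replicate 1, and 0.78 and 0.81 without control replicate 2.

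Kif18a, which aligns chromosomes, measured 36.9 and 35.0 CPM in TSSK2-IP and 39.9 and 25.96 CPM in control IgG-IP, so the groups overlapped. Its fitted log2 fold change was 0.12 ± 0.40 (SE), with an edgeR adjusted p of 0.916. Kif15, a spindle motor that acts beside KIF11, lay above both controls by little, with 111 and 106 CPM against 101.4 and 101.6 CPM. Kif23, Kif20b, Kif18b and the chromokinesin Kif22 overlapped the controls, with fitted log2 fold changes between -0.74 and 0.12.

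The kinesin-14 motors run towards microtubule minus ends, and Kifc1 is known from spindle poles and from the acrosome and nuclear shaping of spermatids. Kifc1 (chr17:33875659-33890661) measured 18.5 and 12.7 CPM in TSSK2-IP and 9.83 and 14.02 CPM in control IgG-IP. Kifc5b (chr17:26917091-26932583) measured 18.2 and 17.7 CPM against 6.55 and 19.1 CPM. The groups overlapped for both genes. The fitted log2 fold changes were 0.39 ± 0.44 (SE) for Kifc1 and 0.50 ± 0.50 (SE) for Kifc5b, with edgeR adjusted p-values of 0.710 and 0.664.

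Over 2016 aligned coding bases the 2 genes were identical at 1984 (98.41%) and differed at 32, and the longest identical run was 268 bases, so a share of their reads cannot be assigned to either. Summed, the pair measured 36.7 and 30.4 CPM in TSSK2-IP and 16.4 and 33.1 CPM in control IgG-IP, which also overlapped. Against control replicate 1 alone Kifc5b was called higher, with a log2 fold change of 1.40, and against control replicate 2 alone it was fitted at -0.081. Kifc3 lay below both controls at 78.6 and 71.0 CPM against 105 and 93.7 CPM, and Kifc2 overlapped them.

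The kinesin-3 members are cargo carriers apart from Kif14 and Kif1bp, and Kif1bp, the gene of a binding protein, was counted with them here. Fitted values ran from -0.66 (Kif1bp) to 0.65 (Kif14). Their median was -0.26 and turned to 0.032 without control replicate 1. The groups overlapped for all of the 8 but Kif14, which lay above both controls (against 27.3% of all genes). Among them Kif1a, a carrier of synaptic vesicle precursors in neurons, was the one in which the control replicates differed most towards replicate 2. It measured 47.1 and 31.0 CPM in TSSK2-IP and 26.7 and 96.5 CPM in control IgG-IP. Kif1c was the only tested member whose TSSK2-IP replicates differed by 2-fold or more, at 15.3 and 6.09 CPM (1 member towards replicate 1 against 2.83% of all genes, and 0 towards replicate 2 against 3.87%). Kif19a, which shortens cilia, lay below both controls at a log2 fold change of -0.26. Kif26a and Kif26b, which lack motor activity, and Kif28 overlapped the controls at 1.40 to 9.65 CPM, and Kif12, not tested, had 5 and 5 counts in TSSK2-IP and 14 and 41 in control IgG-IP.

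Many of these values moved with the choice of control library. Control replicate 1 was at least 2-fold above control replicate 2 for 12 of the 47 members (25.5%, against 16.8% of all genes), and control replicate 2 was at least 2-fold above replicate 1 for 5 (10.6%, against 26.8%). Among the 10 members with the highest level per length, control replicate 1 exceeded control replicate 2 by 1.93-fold to 2.87-fold, while the TSSK2-IP replicates differed by at most 1.11-fold.

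Both TSSK2-IP libraries were below both controls in 9 of these 10 (against 21.6% of all genes), with Kifap3 as the exception. As the group was drawn after the values were seen, the count is a description. Their median log2 fold change was -1.03, beside -0.16 for the other 37 tested members. Without control replicate 1 these medians were -0.27 and -0.0091, and without control replicate 2 they were -1.52 and -0.079. Across the 47 members, level per kb as the mean of the 4 libraries and log2 fold change had a Spearman rho of -0.508. Over the 14710 annotated genes tested it was -0.178. With the same level and the fold change fitted without control replicate 1, it was 0.0585 across the members. The level is drawn from the same libraries as the fold change, control replicate 1 included, so level and fold change are not independent. These are descriptions across genes that share the same 4 libraries, not tests.

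Without control replicate 1 the fitted sign of 8 members turned, and without control replicate 2 that of 8. No share of all genes is at hand to set beside these sign changes. Without control replicate 2, 12 members were called lower (25.5%, against 17.9% of all genes) and Klc1 and Kifc5b higher (against 19.4%). The 12 were Kif2a, Kif2b, Kif2c, Kif3a, Kif3b, Kif17, Kif27, Kif9, Kif6, Kif20a, Kif18b and Kif1bp. Without control replicate 1, Kif1a and Kif7 were called lower (against 2.16% of all genes) and none higher (against 5.47%). At an unadjusted p under 0.05 there were 8 higher and 21 lower members without control replicate 2 (against 28.0% and 29.4% of all genes) and 3 higher and 11 lower without control replicate 1 (against 17.3% and 11.6%). No member was called lower in both settings. With 1 control library left, that library is assumed to vary like the other group.

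**Figure D4:**
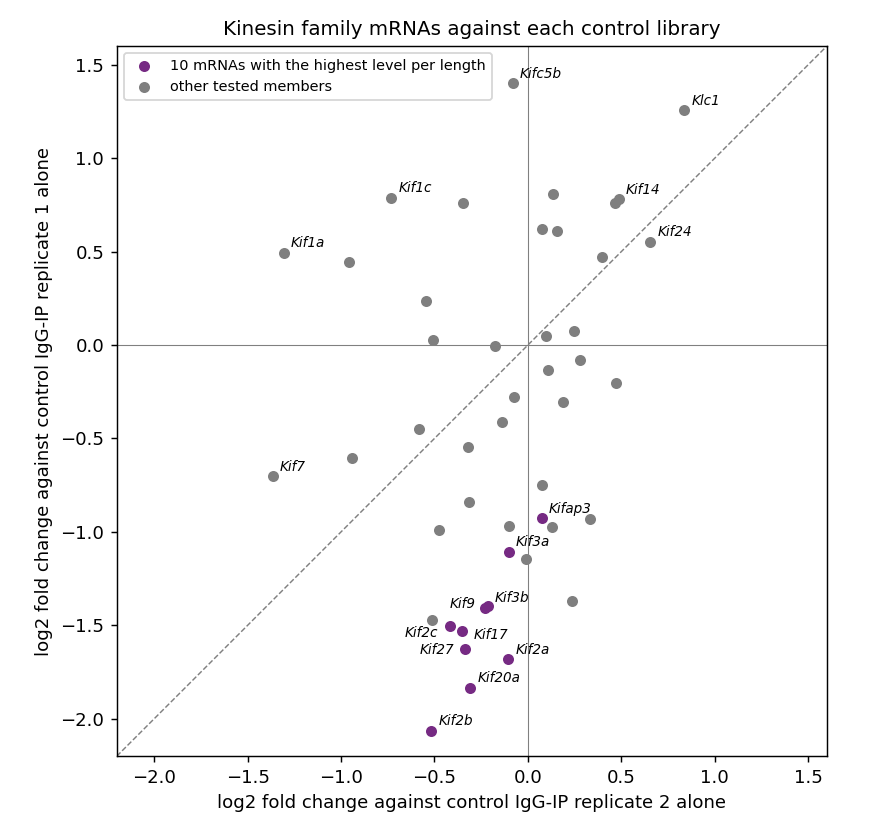
Log2 fold change of TSSK2-IP against control IgG-IP replicate 2 alone (horizontal axis) and against control IgG-IP replicate 1 alone (vertical axis) for the 47 tested members, 1 point per gene, with the 10 highest by level per length in purple. The dashed line marks equal values. The purple points lie far below it, from -2.06 for Kif2b to -0.93 for Kifap3 on the vertical axis, while Klc1 is above 0 on both axes.

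Summed germ cell markers were also highest in control replicate 1, though not every marker was. The sums of the 7 elongating spermatid mRNAs given above, of 6 round spermatid mRNAs (846 and 884 CPM in TSSK2-IP, 1458 and 940 CPM in control IgG-IP) and of 7 spermatocyte mRNAs (1520 and 1379 CPM against 3494 and 1693 CPM) were highest in that library. Akap4, Prm2 and Hspa2 carried much of the elongating spermatid and spermatocyte sums, while Tnp1, Acrv1, Catsper3 and Dmc1 were lowest in that library. Tssk2 and Tsks carried much of the round spermatid sum. Tssk2, the mRNA of the protein pulled down, measured 156 and 143 CPM in TSSK2-IP and 560 and 205 CPM in control IgG-IP. The paper describes TSSK2 expression as specific to elongating spermatids, so that sum does not stand for round spermatids alone. None of these 20 markers was called. The sums of somatic cell markers were low, at 15.3 to 48.1 CPM for 6 Sertoli cell mRNAs and 14.4 to 35.4 CPM for 5 Leydig cell mRNAs, both lowest in control replicate 1, where the Leydig cell marker Insl3 had 0 counts. Those of 6 spermatogonium, 4 macrophage and 4 peritubular and endothelial mRNAs overlapped between the groups, at 12.8 to 39.7 CPM. The part of these differences in the kinesin values was not tested.

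Partners of the kinesins were read from lists of known genes. No gene of these lists was called in either direction. Of 2 further kinesins, Cenpe, the centromere motor, measured 185 and 179 CPM in TSSK2-IP and 481 and 235 CPM in control IgG-IP (log2 fold change of -0.98), and Stard9 was fitted at -0.18. Among 21 tested cargo adaptors and regulators, 1 was higher (against 8.34% of all genes) and 4 were lower (against 4.89%) when the unadjusted p was held under 0.05. Their median log2 fold change was -0.15, or -0.18 without control replicate 1 and -0.35 without control replicate 2. Rhot1, which anchors kinesin-1 to mitochondria, had the smallest p, at 52.4 and 45.3 CPM against 305 and 84.1 CPM (log2 fold change of -1.99 ± 0.59 SE, edgeR adjusted p of 0.186).

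Cytoplasmic dynein and dynactin, which run the opposite way on microtubules, had 1 higher and 2 lower of 36 at that p (against the same 8.34% and 4.89%). The median was -0.45, or -0.073 without control replicate 1 and -0.75 without control replicate 2. The dynein adaptor Hook3 had the smallest p, at 55.1 and 43.8 CPM against 20.1 and 23.2 CPM, a log2 fold change of 1.19 ± 0.40 (SE) with an edgeR adjusted p of 0.257. Of 29 spindle and midzone partners, 2 were higher (against 8.34%) and 1 lower (against 4.89%). The median was -0.16, and it turned to 0.090 without control replicate 1 and was -0.55 without control replicate 2.

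The spindle checkpoint protein Mad2l1 measured 36.3 and 23.0 CPM in TSSK2-IP and 7.96 and 9.65 CPM in control IgG-IP (log2 fold change of 1.75 ± 0.44 SE, edgeR adjusted p of 0.104). Of 14 tested alpha and beta tubulins none reached an unadjusted p under 0.05 (against 8.34% of all genes higher and 4.89% lower). Their median was -0.44, or -0.16 without control replicate 1 and -0.56 without control replicate 2. The smallest p among them was that of Tuba1a, which was low, at 0.460 to 3.62 CPM.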

How the data were processed

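RNA of 2 TSSK2-IP and 2 control IgG-IP libraries from mouse germ cells was analysed. The authors used Trimmomatic 0.39 for trimming, STAR (2.7.10a in the submitters' processing notes) for mapping to GRCm38 and featureCounts 2.0.3, and deposited raw counts per gene, whole and not normalized. The strand setting and the handling of reads that map to several places are not given in the sources used here. Gene names, exon lengths and coordinates came from GENCODE vM21 on GRCm38.

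All genes were fitted with edgeR 4.0.16 in R 4.3.3 (filterByExpr, TMM, glmQLFit, glmQLFTest, Benjamini-Hochberg adjustment), without pairing of replicates. Calls needed an adjusted p not above 0.05 and a change of 1 or more in size on the log2 scale. CPM were scaled by TMM, and members were compared with each other per kb of merged exons. With 2 libraries against 2, an exact two-sided permutation test cannot go below p = 0.333, so none was used. The fit was tested on simulated data. Shared stretches of at least 150 bases and 97% identity were searched with BLAST+ 2.17.0.

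The members and lists were chosen with earlier results of these data known. Full values were given for the 6 members of lowest p on either side, the 3 highest per length and members with a known role in spermatids or meiosis. Subfamilies followed textbook membership, except that Kif1bp, the gene of a binding protein, was placed with kinesin-3. Kif28 was not assigned. Alternatives were DESeq2 1.42.0, its size factors, upper-quartile normalization, other count filters, the replicate number as a block and each library left out. Values of low counts carry counting error, and depth limits members under about 10 counts.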

Additional observations from a re-analysis of the deposited data

How the results depend on the processing

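No member was called in either direction under DESeq2, its size factors, upper-quartile normalization, either filter or the replicate block. Over all genes, these settings called 0.136% to 1.86% higher and 0% to 0.113% lower. Leaving out each library in turn gave 0 to 2 members called higher and 0 to 12 called lower, the calls coming from leaving out either control library. Members at an unadjusted p under 0.05 numbered 0 higher (against 5.43% of all genes) and 8 lower (against 9.19%) with DESeq2 and 6 lower (against 8.84%) with upper-quartile normalization. With a library left out they numbered 0 to 8 higher (against 1.87% to 28.0%) and 0 to 21 lower (against 0.0408% to 29.4%). The median log2 fold change of the members was -0.50 with DESeq2 and with its size factors, where the median of all genes moved from -0.019 to -0.14, so that the distance between them was -0.36, as in the fit reported. With a library left out the distance was -0.47 and -0.21 without TSSK2-IP replicates 1 and 2, and -0.11 and -0.56 without control replicates 1 and 2. The median of the members itself was -0.43 without a filter, -0.30 with at least 10 counts in every library and -0.49 to -0.10 with a library left out. The replicate differences of the groups correlated at 0.126 over genes. In the labels the samples share only a number. The paper's co-IP protocol split a lysate between TSSK2 and IgG beads. Whether same-numbered libraries came from the same lysate is not given in the sources used here. With the replicate block the median was -0.29 and 0 members were lower at an unadjusted p under 0.05, against 2.20% of all genes. Of the 22 members with full values, 4 changed sign. They were Kif18a (0.12, against -0.015 with DESeq2 and with its size factors), and with a library left out Kif18a (-0.20 to 0.47), Kifap3 (-0.93 to 0.074), Kifc5b (-0.081 to 1.40) and Klc3 (-0.18 to 0.0062). The causes were not tested. A left-out library leaves a group with 1 library, which is assumed to vary like the other group. These values are limited by the 2 libraries per group, by the distance between the control libraries and by depth. Of the 47 tested members, 46 had at least 10 counts in every library.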
